A study of Mus musculus with 34 samples.

Results

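H3K9me3, the trimethylation of histone H3 at lysine 9, was compared between the congenic embryonic stem cell line B6-13D2 and the C57BL/6J (B6) line, at regions outside chromosome 13. The H3K9me3 count table of repeated libraries holds 248336 regions, of which 236357 lie off chromosome 13 and are described here. Of these, 82710 passed the filter on low counts and were tested. The B6-13D2 line (labelled QJ 6-1) has the genotype B6.D2-(rs30079041-rs51756099)/Bakr, a chromosome 13 segment of DBA/2J (D2) in a B6 background, and was read in 2 libraries. The B6 line (B6 5-1) was read in 3. The D2 line (D2 5-5, 2 libraries) and the reverse congenic D2-13B6 (XE 2-4, 3 libraries), which carries a B6 segment of chromosome 13 in a D2 background, served as a second comparison. The markers at the ends of that segment are given differently in the sources used here, and its extent was not used. All were mouse embryonic stem cells kept in serum with LIF, the MEK inhibitor PD0325901 at 1 µM and the GSK3 inhibitor CHIR99021 at 3 µM. Chromatin was fixed with 1% formaldehyde, cut with micrococcal nuclease and sequenced in 75 bp reads. The libraries of a line are technical replicates, so every p-value measures the spread between libraries of 1 line and compares lines, not genotypes. Each genotype is a single line, and its genotype off chromosome 13 was not examined here. An effect of the segment therefore cannot be told apart from other differences between the lines.

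H3K9me3 marks heterochromatin. In embryonic stem cells it is placed by the methyltransferase SETDB1, brought to retrotransposons by KRAB zinc finger proteins and their cofactor TRIM28, and by SUV39H enzymes at the satellite repeats beside the centromeres. It also lies on the DNA-methylated copy of imprinted control regions. Chromosome 13 of the mouse carries clusters of KRAB zinc finger genes, and such proteins act on targets on any chromosome. H3K27ac, found at active enhancers and promoters, was measured in libraries of the same lines and is used below as a second readout.

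Depth was low for a genome-wide mark. The B6 libraries held 1904669 to 2012189 counts in regions, the B6-13D2 libraries 2114309 and 2118055, and the D2 and D2-13B6 libraries 1538145 to 2185977. Levels are in CPM, with each library scaled by its counts in tested regions (1062479 to 1546523) and its TMM factor. Replicates 2 and 3 of D2-13B6 differed from each other by a chi-square per degree of freedom of 1.24, but from replicate 1 by 3.00 and 3.28. The D2 replicates differed by 1.75. For D2-13B6, the main counts that rest on the line are also given without replicate 1. The B6 and B6-13D2 libraries gave 1.05 to 1.13 among themselves, above sampling noise, and were kept as separate libraries. The stem cell label was checked on H3K27ac within 2 kb of marker gene starts. Of 8 pluripotency markers, 7 had a tested region, led by Pou5f1 at 172 CPM in B6 and 206 in B6-13D2, and Esrrb had none. Of 8 fibroblast feeder markers 6 had one, with at most 7.49 CPM in B6 and 10.2 in B6-13D2, and Col3a1 and Postn had none. Their summed level was 20.1 to 22.4 CPM in the 3 B6 libraries and 36.1 to 38.2 in the 3 B6-13D2 libraries. The part of feeder cells in the results was not tested. A region with a lower level cannot be told apart from one marked in fewer cells.

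Off chromosome 13, 1071 regions were called between the lines at an adjusted p under 0.05 (edgeR quasi-likelihood test, Benjamini-Hochberg over the whole table), or 1.29% of those tested. Of these, 702 were higher in B6-13D2 (0.849%) and 369 were lower (0.446%). The median log2 fold change was 1.52 among the higher and -1.48 among the lower regions, against -0.03 over all tested regions. A change of at least 1 in log2 was reached by 658 of the higher and 296 of the lower calls. The libraries of the lines did not overlap at all 702 higher and at 364 of the 369 lower regions. Among all tested regions they did not overlap at 26.2%. Without replicate 1 of D2-13B6, which enters the shared spread, 933 regions were called higher and 481 lower. Without replicate 1 or 2 of B6-13D2, 518 and 461 regions were called in all, and 276 with the DESeq2 Wald test. Chromosome 13 itself had 9.58% of its tested regions called.

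The sets had different kinds of position. Of the higher regions, 54.7% were intergenic and 7.55% touched a coding exon. Of the lower regions, 34.4% were intergenic and 25.2% touched a coding exon, and the shares over all tested regions were 45.5% and 17.3%. Bases masked as repeats in the reference made up 50% or more of 51.6% of the higher regions, of 22.2% of the lower ones and of 26.1% of all tested. Among regions with a mean of at least 20 counts these shares were 56.25%, 33.3% and 46.6%. Over the full sets, the median share of 32-base words found elsewhere in the genome was 40.3%, 8.42% and 3.24% in the same order. With a mean of at least 20 counts these medians were 44.05%, 24.4% and 27.01%. The higher regions then stood less far above all tested, and the lower regions lay below instead of above. The higher regions had a median of 2.35 CpG dinucleotides per 100 bases, against 1.52 in the lower regions and 1.62 in all. The 377 higher regions outside the sequence groups described below had medians of 1.35 CpG dinucleotides and 3.32% repeated words. Repeats were masked over 50% or more of the bases in 13.3% of these 377. The handling of reads that map to several copies is not given in the sources used here, so a value in a repeat is uncertain as a measure of 1 position. These features are descriptions and were not tested.

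The calls were dispersed. Joined within 10 kb, the 702 higher regions formed 659 loci, 620 of them of 1 region, and the 369 lower regions formed 267 loci, 235 of them of 1 region. Of 526 windows of 5 Mb with a tested region, 395 held a call. On the autosomes other than 13, between 0.884% and 1.74% of the regions of a chromosome were called, and chromosome medians of the log2 fold change lay between -0.06 and 0.00. The sex chromosomes stood apart. On X, 39 of 49 calls were lower, and on Y all 11 calls among 99 tested regions were lower.

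**Figure D1:**
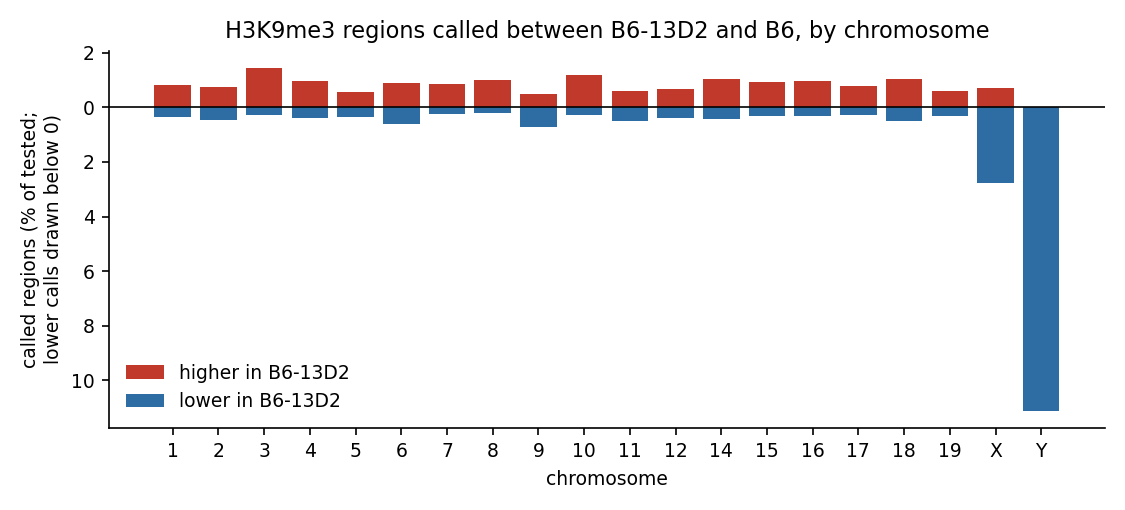
Share of tested regions called on each chromosome other than 13, in percent, with calls higher in B6-13D2 above 0 and calls lower drawn below 0. Autosomes lie between 0.884% and 1.74% called in all, and Y reaches 11.1%, all lower.

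The called regions were aligned to every tested region to find shared sequence. A group was formed from a called region and the tested regions aligned with it over at least 150 bases, where the called share was at least 8 times the share over all tested regions and at least 5 members were called. The values of the comparison thus chose the groups, and their levels in B6-13D2 and B6 are descriptions. Of the 702 higher regions, 325 (46.3%) fell into 5 such groups, and 301 of these lay in 3 groups that hold 3204 tested regions, 3.87% of all. No repeat annotation was used here. From general knowledge, the sequences of these 3 groups are those of the 5′ ends of young L1 retrotransposons, the LINE elements that still move in the mouse genome, and they are called L1 groups 1, 2 and 3 below. Short stretches of called members are shown because they identify the element. Capitals mark the 20-base word found in most called members of the group, coordinates are GRCm38 positions, and members on the minus strand are shown as that strand reads.
L1 group 1, chr9:67982197-67982226: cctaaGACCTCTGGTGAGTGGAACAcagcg
L1 group 1, chr5:90909871-90909900: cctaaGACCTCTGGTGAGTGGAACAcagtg
L1 group 1, chr4:77499672-77499701: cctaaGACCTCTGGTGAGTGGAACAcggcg
L1 group 2, chr12:10988673-10988702: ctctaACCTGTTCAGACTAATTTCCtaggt
L1 group 2, chr17:40371962-40371991: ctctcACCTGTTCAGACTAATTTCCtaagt
L1 group 3, chr11:46014171-46014200: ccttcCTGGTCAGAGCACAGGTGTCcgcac
L1 group 3, chr10:46380197-46380226: taaacCTGGTCAGAGCACAGGTGTCcgcag
The group 1 word, searched on both strands, was in 181 of the 198 called members and in 2.00% of all tested regions. The group 2 word was in 61 of 64 called members and in 2.81% of tested regions, and the group 3 word in 34 of 39 and in 0.222%. Of the called members at least 600 bp wide, 28 of 132 in group 1 and 27 of 54 in group 2 matched themselves at a shift, with median periods of 199.5 and 214 bases. In group 3 it was 1 of 32.

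L1 group 1 was the largest, with 1877 tested regions on 20 chromosomes. Of these, 198 (10.5%) were higher in B6-13D2 and none was lower, against 0.849% and 0.446% of all tested regions. The median log2 fold change over the group was 0.29, and 1397 members had a positive value. L1 group 2 had 917 tested members, of which 64 were higher and none lower, with a median of 0.43. L1 group 3 had 410, of which 39 were higher and none lower, with a median of 0.27. Most members of each group thus had small positive values, and a minority passed the test. Leaving out 1 library of either line at a time left 78 to 152, 22 to 43 and 9 to 25 calls in the groups, the fewest without replicate 2 of B6-13D2. The DESeq2 Wald test called 37, 10 and 5, with medians of 0.30, 0.44 and 0.28.

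Summed over L1 group 1, the level was 27592, 25884 and 26162 CPM in the B6 libraries and 32075 and 33920 in the B6-13D2 libraries. In the other background it was 27474 and 24266 CPM in D2 and 13570, 12320 and 12242 in D2-13B6. Both lines with the D2 segment lay above the line they were compared with, and D2-13B6 lay far below every other library. In L1 group 2 the sums were 9870 to 10108 CPM in B6, 13373 and 13651 in B6-13D2, 12163 and 10600 in D2, and 7637 to 9234 in D2-13B6. L1 group 3 gave 6908 to 7342 CPM in B6 and 8444 and 9024 in B6-13D2. Its D2 libraries, at 7130 and 6340 CPM, overlapped those of D2-13B6 at 4774 to 7293.

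The comparison of D2 with D2-13B6 sets other libraries against each other, and its values were not used to form the groups. It came from the same fit, with a shared filter on low counts and a shared spread. Over all tested regions off chromosome 13 it called 1.81%, with 1.41% (1167 regions) higher in D2 and 0.395% (327) lower. These counts were 1345 and 861 without replicate 1 of D2-13B6, and 329 and 66 without replicate 1 of D2. In that comparison 505 of the 1877 members of L1 group 1 (26.9%) were higher in D2 and none was lower (edgeR, adjusted p under 0.05), with a median log2 fold change of 1.03. In L1 group 2, 51 of 917 members were higher (5.56%) and in L1 group 3, 4 of 410 (0.976%), with medians of 0.42 and 0.24. No member of these groups was lower. Without replicate 1 of D2-13B6 the counts were 522, 63 and 9. They fell to 161, 7 and 0 without replicate 1 of D2, with medians of 0.94, 0.33 and 0.17. Leaving out replicate 2 or 3 of D2-13B6, or replicate 2 of D2, gave 305 to 331, 27 to 43 and 1 to 2.

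The separate series of 3 B6 and 3 D2 lines, 1 library each and scaled within its own table, gave the strain levels at the same regions. L1 group 1 summed to 23728 to 28585 CPM in the B6 lines and 30146 to 35225 in the D2 lines. L1 group 2 summed to 8118 to 8404 CPM in B6 and 11758 to 14356 in D2. In L1 group 3 the strains overlapped, at 6845 to 8472 CPM in B6 and 8016 to 9547 in D2. The B6 line of the repeated libraries, B6 5-1, is among these 6 and was the lowest of the B6 lines in each group, at 23728, 8118 and 6845 CPM.

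**Figure D2:**
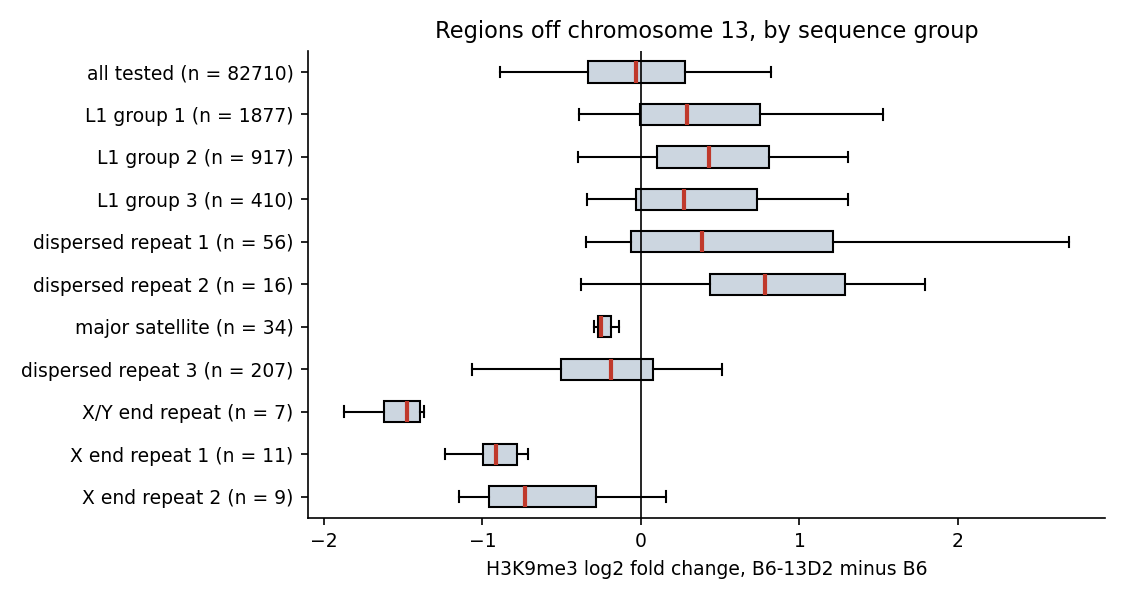
H3K9me3 log2 fold change (B6-13D2 minus B6) of tested regions off chromosome 13, over all regions and by sequence group. Boxes span the quartiles with the median in red and whiskers the 5th to 95th percentiles; the L1 groups have medians of 0.29, 0.43 and 0.27, and the groups were chosen for their called members.

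The other sequence groups with higher H3K9me3 were small. Dispersed repeat 1 had 56 tested members on 18 chromosomes, of which 19 were higher and none lower, with a median log2 fold change of 0.39. Over all tested regions 0.849% were higher. With 1 library of the lines left out, 11 to 17 members were called, the fewest without replicate 2 of B6-13D2. It is shown because 3 of the 10 named higher regions belong to it, and its capitals mark a word in 9 of the 19 called members and 16 tested regions.
Dispersed repeat 1, chr19:47842939-47842998: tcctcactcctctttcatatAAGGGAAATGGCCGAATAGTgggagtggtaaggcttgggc
Dispersed repeat 1, chr14:27688799-27688858: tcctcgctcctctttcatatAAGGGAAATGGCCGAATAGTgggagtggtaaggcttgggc
Dispersed repeat 1, chr8:71814566-71814625: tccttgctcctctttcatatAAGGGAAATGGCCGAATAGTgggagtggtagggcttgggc
Its summed level was 1026 to 1173 CPM in B6 and 1478 and 1639 in B6-13D2. D2 and D2-13B6 were at 1635 and 1664 CPM against 1263 to 1480, and 10 of the 56 members were called higher in D2, against 1.41% of all tested regions. Leaving out replicate 1 of D2-13B6 gave 9 such members, and leaving out replicate 1 of D2 gave 5. The separate lines gave 1033 to 1075 CPM in B6 and 1800 to 2075 in D2. Dispersed repeat 2 had 16 members, 5 of them higher, with a median of 0.78, and 3 without replicate 3 of B6 or replicate 2 of B6-13D2.

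Among the lower regions, 45 of 369 fell into 5 groups. The major satellite, the tandem repeat beside mouse centromeres, was recognised from its sequence and its period. Like the other groups it was formed from called regions. It had 34 tested members, 18 of them lower, against 0.446% of all tested regions, and all 18 at the start of the assembled chromosome 9 (chr9:3005832-3030464). The stretches below show the word that all 18 shared, in capitals, and 5 of 6 called members at least 600 bp wide repeated at a median period of 234 bases.
Major satellite, chr9:3019364-3019423: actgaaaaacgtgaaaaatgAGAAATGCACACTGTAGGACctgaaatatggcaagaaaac
Major satellite, chr9:3018429-3018488: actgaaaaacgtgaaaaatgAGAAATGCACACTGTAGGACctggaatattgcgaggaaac
The change was small, with a median log2 fold change of -0.25 over the group, and the counts were large. The group summed to 113567, 108209 and 102961 CPM in B6 and to 92325 and 89584 in B6-13D2, without overlap. Leaving out replicate 1 or 2 of B6 left 4 and 2 of the 18 chromosome 9 calls, and leaving out replicate 1 or 2 of B6-13D2 left 1 and 0. The median stayed at or below -0.20 in each. With the DESeq2 Wald test, with no filter on low counts or with a mean of at least 20 counts, none of the group was called. D2 gave 67916 and 66167 CPM and D2-13B6 67667 to 75334. The separate D2 lines, at 66452 to 82643 CPM, lay below the separate B6 lines at 125004 to 146843.

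The largest block of lower H3K9me3 lay at the end of chromosome X. From 169.9 Mb onward, 38 of 46 tested regions were lower in B6-13D2, against 0.446% of all tested regions, and none was higher, with a median log2 fold change of -0.999, and 31 of them formed 1 locus of 87.3 kb over Mid1, a microtubule-associated ubiquitin ligase gene that crosses the pseudoautosomal boundary in B6. At the end of Y, from 90.7 Mb, 9 of 21 regions were lower, with a median of -0.67. Both starting points lie just before the first call of that end (169927012 on X, 90725134 on Y), so these counts are descriptions. Over the rest of X, 10 of 1357 regions were higher and 1 lower. These ends pair and recombine in male meiosis and hold tandem repeats. A repeat shared by the X and Y ends is printed here with the word shared by its 7 members in capitals. All 7 members of this group, which was formed from called regions, were lower, and the word was in 8 tested regions.
X/Y end repeat, chrX:170011762-170011821: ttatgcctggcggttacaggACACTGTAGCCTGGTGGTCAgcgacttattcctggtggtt
X/Y end repeat, chrY:90787083-90787142: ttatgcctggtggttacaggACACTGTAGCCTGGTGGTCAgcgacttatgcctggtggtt
The end of X summed to 4187, 3658 and 3906 CPM in B6, 1979 and 2029 in B6-13D2, 1136 and 1109 in D2, and 1243 to 1446 in D2-13B6. In the separate lines it did not divide the strains. The B6 lines gave 1520, 783 and 1789 CPM, with the lowest in B6 4-4, and the D2 lines 1395 to 2066. The B6 5-1 line, used in both series, was at 1789 CPM there, on that table's own scale. Of the 31 calls at Mid1, 15 held without replicate 1 of B6-13D2 and 15 without replicate 2. D2 minus D2-13B6 had 4 of these 31 regions called, all lower, and the same count without replicate 1 of D2-13B6.

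**Figure D3:**
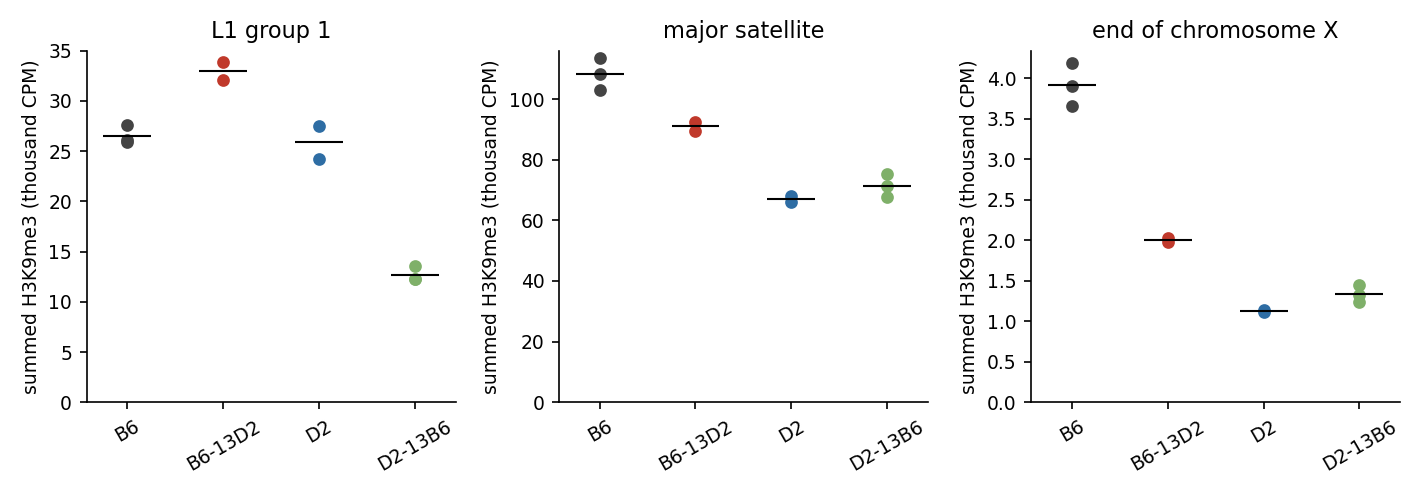
H3K9me3 summed over L1 group 1, the major satellite group and the end of chromosome X, with axes in units of 1000 CPM, 1 point per library and a bar at the mean of each line. L1 group 1 is highest in B6-13D2 and lowest in D2-13B6, while the other panels are highest in B6.

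Single regions, in and outside these groups, had larger changes than the group medians. Among calls with a mean of at least 20 counts, the region with the largest rise lay at chr11:21256212-21257208 in an intron of Vps54, a subunit of the complex that tethers endosome-derived vesicles to the Golgi. Its level was 4.36, 2.28 and 1.47 CPM in B6 and 41.7 and 45.4 in B6-13D2. The groups were far apart, with a log2 fold change of 3.96 ± 0.35 (SE, adjusted p = 4.45e-19, edgeR). In D2 it was at 32.2 and 21.7 CPM and in D2-13B6 at 3.51 to 4.50. The 3 separate D2 lines had 88.5 to 113 CPM and the 3 B6 lines 0.899 to 4.35. The middle 150 bases are shown, with CG dinucleotides in capitals, because the element that gained the mark has 11.7% of its words elsewhere in the genome and is not in a sequence group.
Vps54 intron, chr11:21256635-21256784: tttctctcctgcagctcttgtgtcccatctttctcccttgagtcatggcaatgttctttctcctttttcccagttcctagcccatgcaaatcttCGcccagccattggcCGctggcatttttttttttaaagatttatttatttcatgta

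Of the 10 named higher regions, 6 belonged to a sequence group. In L1 group 1 was chr3:68525018-68527015, in an intron of Iqschfp, at 4.36, 3.04 and 7.37 CPM in B6 and 42.4 and 40.6 in B6-13D2 (log2 fold change 3.05 ± 0.31 SE, adjusted p = 4.97e-15, edgeR). Its D2 libraries, at 43.9 and 41.9 CPM, lay above D2-13B6 at 9.89 to 11.95. Dispersed repeat 1 held chr6:149471111-149472212 in an intron of Bicd1, a dynein adaptor, which rose from 2.18, 6.85 and 5.16 CPM in B6 to 36.95 and 36.6 in B6-13D2. It also held chr14:27688165-27689179 in an intron of Erc2, a protein of presynaptic active zones, at 4.56 to 7.37 CPM in B6 and 34.2 and 48.1 in B6-13D2. That locus had 4 higher regions over 3.52 kb, the most of any higher locus, and all 4 held when any 1 library of the lines was left out. The third member was chr6:123818257-123819191 at Vmn2r24, a vomeronasal receptor gene, at 3.80 to 9.58 CPM in B6 and 33.5 and 46.0 in B6-13D2.

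The remaining named higher regions were mostly unique in sequence. At chr16:92399321-92400921, over a coding exon of the calcineurin regulator Rcan1, no 32-base word occurred elsewhere in the genome. The level was 4.36, 6.09 and 4.42 CPM in B6 and 27.4 and 31.1 in B6-13D2 (log2 fold change 2.54 ± 0.34 SE, adjusted p = 1.03e-09, edgeR). D2 had 26.9 and 25.6 CPM and D2-13B6 3.73 to 9.13. At chr8:95292952-95294402, over a coding exon of Cngb1, a subunit of the cation channel of rod photoreceptors, B6 had 9.44, 6.85 and 1.47 CPM and B6-13D2 36.3 and 31.8. Chr3:103373898-103374669, intergenic and 15.1 kb from the transcriptional cofactor gene Trim33, had 3.04 to 3.68 CPM in B6 and 28.1 and 31.8 in B6-13D2. The named regions in an intron of Micu3 and near March4 were in L1 group 1, with log2 fold changes of 2.66 and 2.53.

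Among calls with a mean of at least 20 counts, the largest fall was at chr6:50196338-50197829, over a coding exon of Mpp6, a membrane-associated guanylate kinase, and overlapping Gsdme. The level was 33.4, 37.3 and 28.7 CPM in B6 and 2.05 and 1.35 in B6-13D2, where the libraries held 3 and 2 counts. Against the floor of 3 counts per library the level was lower by at least 16.2-fold (edgeR adjusted p = 5.04e-14). D2 had 0 and 3.88 CPM, and D2-13B6 had 28.8, 12.7 and 13.3. At chr2:104095512-104097708, in an untranslated part of Cd59a, which protects cells from complement, B6 had 56.7, 52.5 and 61.2 CPM and B6-13D2 4.79 and 6.77. It fell by 3.27 ± 0.31 on the log2 scale (SE, adjusted p = 5.56e-17, edgeR). At both regions the lines with the D2 segment were low and the lines with the B6 segment high.

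The Actl6a region was low in all 3 other lines. In an intron of Actl6a, an actin-like subunit of BAF chromatin remodelling complexes, chr3:32716413-32717816 had 31.96, 30.4 and 22.8 CPM in B6 and 2.05 and 4.06 in B6-13D2 (log2 fold change -3.17 ± 0.40 SE, adjusted p = 2.16e-10, edgeR). D2 gave 0 and 3.88 CPM and D2-13B6 0.899 to 3.73, with no call between them (log2 fold change -0.30 ± 0.78 SE, adjusted p = 0.946, edgeR). Its middle holds a short tandem repeat in the B6 reference, shown with CG in capitals, and 24.4% of its words occur elsewhere.
Actl6a intron, chr3:32717040-32717189: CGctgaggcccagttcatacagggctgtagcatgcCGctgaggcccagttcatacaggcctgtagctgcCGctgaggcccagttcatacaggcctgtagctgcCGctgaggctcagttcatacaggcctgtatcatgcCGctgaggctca
At chr12:4816570-4818278, over a coding exon of the splicing factor gene Sf3b6, no word was repeated. B6 had 34.9, 40.3 and 36.8 CPM, B6-13D2 8.21 and 4.74, D2 7.16 and 3.10, and D2-13B6 19.7 to 25.2. At chr15:5022680-5024890, over a coding exon of the complement gene C7, B6-13D2 at 9.58 and 12.9 CPM lay below B6 at 44.2 to 49.4 and also below D2 at 25.1 and 23.3. The other named lower regions, at Dennd2a, near Gpc1, and at Tex33, Zscan25 and H13, had log2 fold changes from -2.72 to -2.07. The value at Dennd2a, where the B6-13D2 libraries held 2 and 9 counts, was -2.01 without replicate 1 of B6-13D2 and -4.10 without replicate 2. All 20 named regions kept their direction and stayed called in the 15 alternative fits. In the 2 fits that left out a B6-13D2 library, the remaining one was assumed to vary like the libraries of the other lines.

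**Figure D4:**
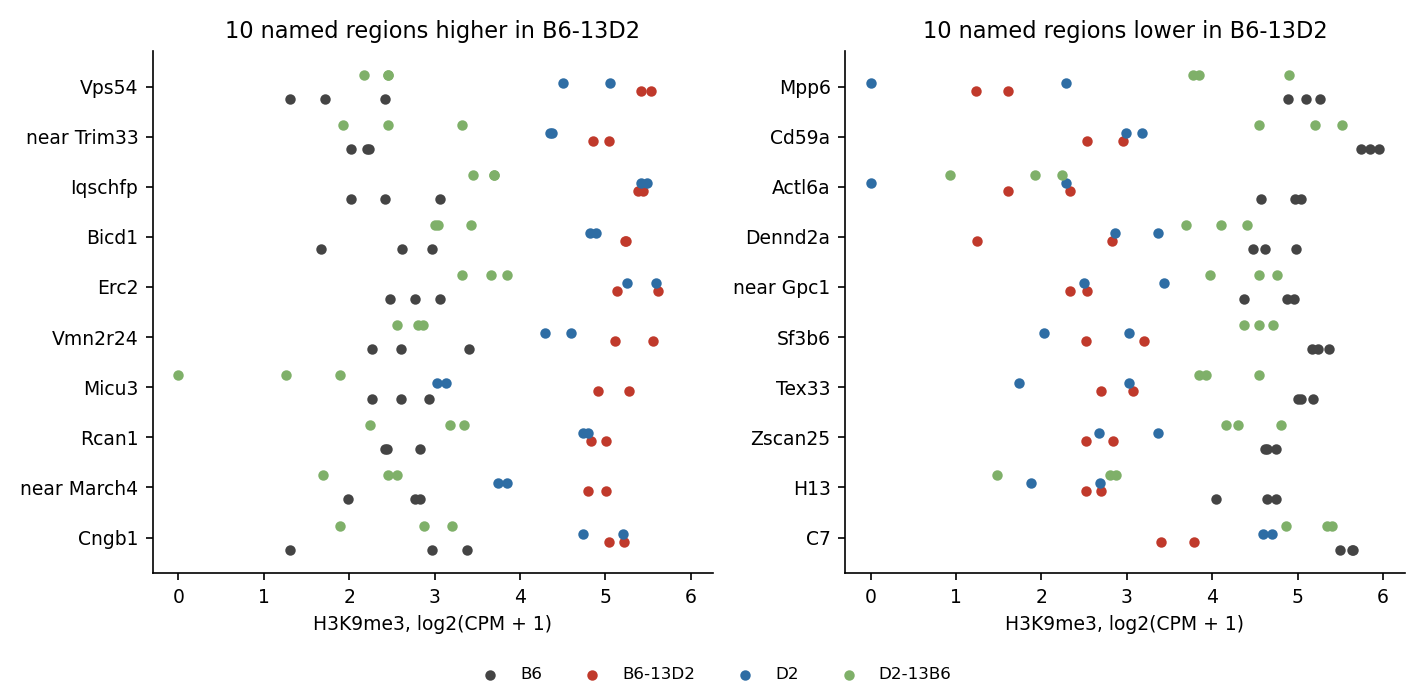
H3K9me3 as log2(CPM + 1) at the 10 named regions higher (left) and lower (right) in B6-13D2, labelled by gene, with 1 point per library and a colour per line. All 10 higher regions were called higher in D2 than in D2-13B6 and 6 of the 10 lower regions lower; at Actl6a and H13, D2-13B6 is about as low as D2.

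The comparison of D2 with D2-13B6, lines that differ by a chromosome 13 segment in the other background, used none of the libraries compared first. Both came from 1 fit, so the filter on low counts, the scaling and the estimate of spread were shared. Of the 702 regions higher in B6-13D2, 219 were higher in D2 than in D2-13B6 and none was lower, against 1.41% and 0.395% of all tested regions. These are 31.2% of the first list and 18.8% of the 1167 regions higher in D2. Of the 369 lower regions, 47 were lower in D2 (12.7% of the first list and 14.4% of the 327 lower in D2) and 8 were higher. The median log2 fold change of D2 minus D2-13B6 was 0.96 at the higher and -0.37 at the lower regions, against -0.02 over all tested. Without replicate 1 of D2-13B6, 195 and 43 regions were called in the same direction. Without replicate 1 of D2 the counts were 73 and 20. All 10 named higher regions were called higher in D2, and 6 of the 10 named lower regions were called lower. These counts were the same without replicate 1 of D2-13B6, where 14 rather than 8 of the lower regions were called higher. With any other library of these lines left out they were 8 to 9 and 2 to 6, with 2 named lower regions called without replicate 2 of D2, and 1 to 11 lower regions were called higher. A direct test of the signed difference between the comparisons called 32 regions (0.0387%) more positive in the B6 background and 258 (0.312%) more negative. They included 15 and 1 of the 702 higher regions, 0 and 37 of the 369 lower ones, 0 and 94 of L1 group 1, and none of the 20 named. A more negative value is a smaller rise at a higher region but a larger fall at a lower one. Without replicate 1 of D2-13B6 the test called 89 and 346 regions, 1 of them named (C7), and with any other library left out 10 to 28 and 51 to 233.

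The separate lines of the strains had levels on the same side at most of these regions. At the higher regions the median was 7.20 to 7.83 CPM in the 3 B6 lines and 19.6 to 23.2 in the 3 D2 lines. At the lower regions it was 17.1 to 22.3 CPM in B6 and 5.989 to 6.62 in D2. All D2 lines lay above all B6 lines at 538 of the 702 higher regions and below them at 32, against 15.2% and 15.4% of all tested regions. At the lower regions all D2 lines lay below at 234 of 369 and above at 33. The mean of lines 4-1 and 4-4 differed from B6 5-1 by a median of -0.09 in log2 at the higher and 0.01 at the lower regions. Line 4-1 minus line 4-4 had medians of 0.07 and 0.31 there, against 0.04 over all tested regions. Signed differences can cancel, so these medians do not give the spread between B6 lines.

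H3K27ac was lower at many regions where H3K9me3 was higher. It could be tested at 667 of the 702, of which 337 were lower in B6-13D2 and 18 higher, against 8.38% and 8.93% of all regions tested for both marks (edgeR, adjusted p under 0.05, with n = 2 per line after near-identical libraries were summed). The median log2 fold change of H3K27ac was -0.94 there and -0.11 over all. At 348 testable lower regions, 89 were higher in H3K27ac and 48 lower, with a median of 0.12. With library totals in place of TMM, which moved the median of all H3K27ac regions off chromosome 13 from -0.06 to -0.20, the counts were 381 lower and 15 higher at the first set and 80 higher and 63 lower at the second. With near-identical libraries kept separate, 41 rather than 18 regions of the first set were higher. Of the 301 regions of the L1 groups with higher H3K9me3, 295 could be tested, and 216 were lower in H3K27ac and none higher. Over all testable members of L1 group 1, called or not, 936 of 1662 were lower in H3K27ac and none was higher, with a median of -1.70. L1 groups 2 and 3 had 205 of 895 and 180 of 368 lower, with 1 and 2 higher. Outside the sequence groups, 104 of 349 testable higher regions were lower in H3K27ac and 18 were higher. Of the 303 testable lower regions outside the groups, 88 were higher in H3K27ac and 18 lower, with a median of 0.21. Of the 45 lower regions inside them, 1 was higher in H3K27ac and 30 were lower, with a median of -0.57.

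Single named regions showed the change in both marks. At Bicd1 H3K27ac was 10.9 to 12.5 CPM in B6 and 0.669 to 0.813 in B6-13D2, a log2 fold change of -3.995 ± 0.27 (SE, adjusted p = 1.33e-15, edgeR). At Erc2 it was 18.2 to 20.6 CPM against 2.80 to 3.21. At Mpp6 it moved the other way, from 1.18 to 1.74 CPM in B6 to 8.22 to 9.36 in B6-13D2, and at Cd59a from 14.1 to 16.7 CPM to 43.9 to 49.7. The Rcan1 region was an exception, since both marks were higher in B6-13D2, with H3K27ac at 6.96 to 10.1 CPM in B6 and 14.1 to 15.4 in B6-13D2. Of the 10 named higher regions 8 were lower in H3K27ac and 1 higher, and of the 10 named lower regions 4 were higher and none lower. The major satellite did not follow this, as 31 of its 34 members were lower in H3K27ac too, against 8.38% of all regions tested for both marks. Among the other groups formed from lower regions, a dispersed repeat had 74 of 201 members lower in H3K27ac and 18 higher. A repeat of the X end had 9 of 11 lower and a further one 2 of 9, with none higher. The X/Y end repeat had 1 of 7 higher and none lower.

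**Figure D5:**
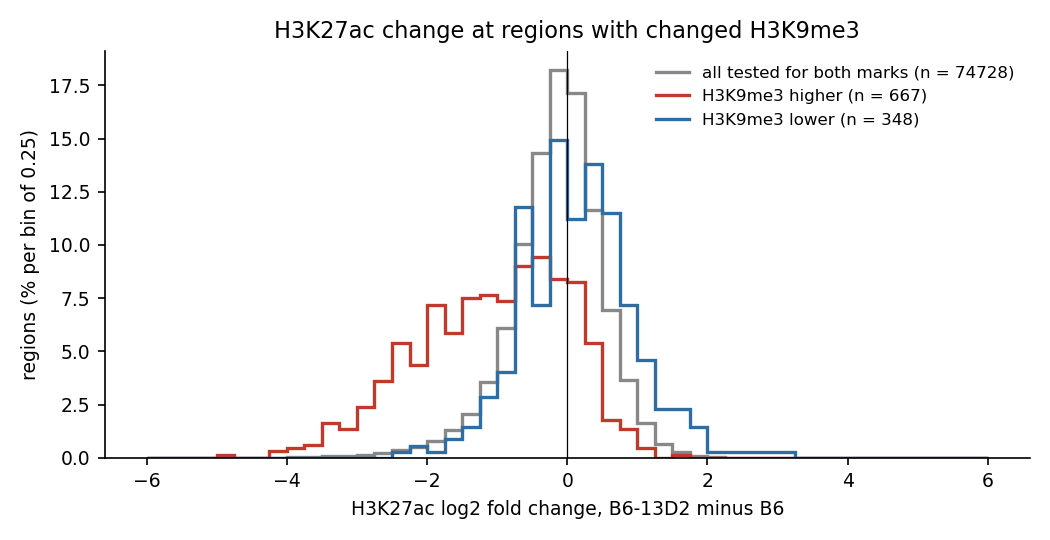
Distribution of the H3K27ac log2 fold change (B6-13D2 minus B6), in percent of regions per bin of 0.25, at regions with higher H3K9me3, with lower H3K9me3, and at all regions tested for both marks. The first set is shifted to the left, with a median of -0.94, and the second has a median of 0.12.

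Genes of known function were read at regions within 5 kb. Among 123 regions at imprinted genes, 3 fell and none rose. That is 2.44% lower, against 0.446% of all tested regions, with a median log2 fold change of -0.23 over the list against -0.03 over all tested regions. All 3 lay at paternally expressed genes that sit inside other genes. Chr2:152685965-152687881, at Mcts2 within H13, had 23.97, 25.9 and 15.5 CPM in B6 and 5.47 and 4.74 in B6-13D2 (log2 fold change -2.07 ± 0.38 SE, adjusted p = 2.49e-05, edgeR). Chr2:157560982-157561981, at Nnat within Blcap, had 18.9, 15.2 and 19.9 CPM against 1.37 and 7.45, and was not called without replicate 1 of B6-13D2. Chr11:22971058-22973521, at Zrsr1 within Commd1, had 30.5, 36.5 and 24.3 CPM against 14.4 and 14.2, and was not called in 4 of the 5 fits that left out 1 library. D2 and D2-13B6 did not differ at any of the 3 by this test, with log2 fold changes of -0.23, -0.38 and -0.33. In the separate lines, the Mcts2 region had 18.4 to 26.1 CPM in B6 and 1.32 to 4.10 in D2.

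The counts of the other lists are small, and the shares over all tested regions were 0.849% higher and 0.446% lower. Of 32 genes for H3K9 methylation and heterochromatin proteins, 29 had a tested region. None of their 75 regions passed, at a share called of 1.29% over all regions, with a median of -0.01, nor did any of 65 regions at early lineage regulators (median -0.03) or of 12 at feeder markers (median 0.18). Among 61 regions at germline genes 4 rose (median of the list 0.05), in the meiotic genes Smc1b and Sycp1. The Sycp1 region, chr3:102865493-102866691, is an intronic copy of L1 group 2 and had 7.26 to 8.84 CPM in B6 and 25.3 and 30.5 in B6-13D2. Of the 3 Smc1b regions 2 are intronic copies of L1 group 1. The third, at chr15:85070515-85070919, had 2.28 to 7.26 CPM in B6 and 13.0 and 11.5 in B6-13D2 but 0 to 1.03 CPM in the 6 separate lines, and 4 of the 5 leave-one-out fits did not call it. At two-cell-stage genes, 1 of 38 regions fell (median of the list -0.14), chr1:85590118-85593797 at Sp110, with 609, 535 and 535 CPM in B6 and 329 and 333 in B6-13D2 (log2 fold change -0.76 ± 0.11 SE, adjusted p = 4.6e-08, edgeR). At naive pluripotency genes 1 of 89 regions fell (median 0.02), at Nanog, with 14.5 to 21.1 CPM in B6 and 8.90 and 4.74 in B6-13D2. That call was lost in 4 of 5 leave-one-out fits.

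Regions at zinc finger genes named Zfp showed 12 higher and 4 lower calls among 956 (1.26% and 0.418%, against 0.849% and 0.446% of all tested regions), with a median of -0.10. They included Zfp697, at a noncoding exon that belongs to L1 group 1, at 2.28 to 3.68 CPM in B6 and 16.4 and 20.99 in B6-13D2, and Zfp362, at 0.726 to 1.47 CPM and 10.3 and 11.5. Olfactory receptor genes had 1 higher and 2 lower calls among 341 regions (median 0), of which Olfr1166 and Olfr461 were lost in 4 of 5 leave-one-out fits and Olfr718-ps1 in 2, and vomeronasal receptor genes 1 higher among 136 (median -0.01), the Vmn2r24 region above.

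Some clusters of calls were lost when libraries were left out. At Capg and Sh2d6 (chr6:72511901-72545073), 7 lower regions over 33.2 kb made up the third largest lower locus. Their summed level was 30.5, 189 and 45.7 CPM in B6 and 22.6 and 20.99 in B6-13D2, so that B6 replicate 2 alone was high, and none of the 7 was called without it. At Fam118a (chr15:85053314-85058538), 3 higher regions summed to 23.2, 8.37 and 12.5 CPM in B6 and 45.2 and 40.6 in B6-13D2, but to 0 to 3.99 CPM in the separate lines. None of the 3 was called without replicate 2 or 3 of B6 or without either replicate of B6-13D2. The locus chr7:18748123-18761002, near Psg22, had 3 higher regions with 44.2 to 53.3 CPM in B6 and 109 and 129 in B6-13D2, of which 1 held in each leave-one-out fit of these lines.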

How the data were processed

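The values are raw read counts per region, deposited by the authors with duplicate reads removed, per the file headers. The submitters' processing notes name Trimmomatic 0.39, HISAT2 2.2.1, MACS 1.4.2, bedtools 2.9.2, edgeR and mm10. No region runs past a chromosome end of GRCm38, and 1 was added to each start. Columns were assigned to samples through their library names; 2 H3K9me3 columns matched none and were not used. Counts of all 10 H3K9me3 libraries entered 1 fit in edgeR 4.0.16 (R 4.3.3): quasi-likelihood F-test, TMM scaling, filterByExpr defaults (minimum count 10, minimum total 15), Benjamini-Hochberg adjustment over the whole table, two-sided, called under 0.05. Standard errors were derived from the F statistics. H3K27ac counts were fitted likewise, after libraries of a line that agreed within sampling noise (4 pairs) were summed. In simulated counts for this comparison, over 70973 regions, changes were placed only in regions expected to hold at least 20 counts. Of these, 96% of 100 changes of 4-fold and 43% of 100 of 2-fold were recovered, with 12 false calls over all regions. The median tested region had a mean of 10.8 counts, so recovery at such regions was not measured.

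Annotation came from GENCODE M21, sequence and masking from RefSeq GRCm38.p6, and alignments from BLAST 2.17.0. Named regions were the 10 largest changes per direction among calls with a mean of at least 20 counts over the 5 libraries and no overlap between the lines, 1 per 10 kb locus, and the 3 loci per direction with most calls. Up to 4 called regions per gene list were eligible. The members and lists were chosen with earlier results of these data known. The D2 alternatives, the sequence groups, the ends of X and Y and the test of the difference between comparisons were added after the data were seen.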

Additional observations from a re-analysis of the deposited data

How the results depend on the processing

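The 1071 calls off chromosome 13 (702 higher, 369 lower) became 276 with the DESeq2 Wald test (175 and 101), 639 where regions needed a mean of 20 counts or more (353 higher), and 1767 when only the 5 libraries compared were fitted (1112 and 655). With no filter 233 regions were lower. Leaving out 1 library of either line gave 461 to 744 calls, 312 to 513 higher and 133 to 271 lower; leaving out D2-13B6 replicate 1 gave 1414, 933 and 481. The same regions accounted for 276 of the 276 DESeq2 calls and 1033 of the 1767. H3K27ac was called higher at 41 rather than 18 of the regions with higher H3K9me3 when near-identical libraries were kept separate. Called lower among lower regions, D2 minus D2-13B6 gave 47 regions and 19 to 43 with 1 library left out; called higher among higher, 219 and 73 to 195. Deviations of same-numbered libraries correlated at -0.02 and -0.01. With 2 libraries the B6-13D2 deviations mirror each other, and counts per region are low, so these values cannot exclude a shared batch. A replicate block, fitted only to replicates 1 and 2 of each line, gave 878 calls (561 higher, 317 lower). At this depth 2-fold changes were recovered less often than 4-fold ones, so uncalled regions are not shown to be alike.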
